A study of Mus musculus with 8 samples.

Results

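The 10 immediate early genes described here are Fos, Fosb, Jun, Junb, Egr1, Egr2, Egr3, Arc, Npas4 and Btg2, chosen by symbol among the 55341 genes of each count table. All 10 symbols were found, and 9 passed the filter on low counts that left 17355 genes for testing, while Fosb did not. RNA came from sorted nuclei of cortical GABAergic neurons, the inhibitory neurons of the cortex, of juvenile mice, with 1 library per mouse; the labels do not say whether mice shared a litter. A Cre-dependent reporter marked these nuclei, and the labels used here do not name the gene that drives Cre, the age in days or the hormone dose. Both groups were hypothyroid, because their mothers had received propylthiouracil (PTU), a blocker of thyroid hormone synthesis, during pregnancy. The PTU group (mice 9 to 12, n = 4) received nothing further, and in PTU+TH (mice 13 to 16, n = 4) thyroid hormone (TH) was injected into the abdomen 24 h before the brain was collected. A group with normal thyroid hormone was not analysed here. PTU+TH mice 15 and 16 were at 0 for all 4 Y-linked genes checked, and the other 6 libraries held Y-linked counts. Apparent sex was therefore not balanced between the groups.

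Immediate early genes are transcribed within minutes of a stimulus, without the need for newly made protein. In neurons the stimulus is mostly synaptic activity and calcium entry, which act through kinases on factors already bound at the promoters, such as CREB at the cyclic AMP response element (CRE) and SRF at the CArG box. Their transcripts are short-lived, so a nuclear level reports recent transcription more than an average over the day. Fos, Fosb, Jun and Junb encode leucine zipper proteins that pair to form the factor AP-1, the Egr genes encode zinc finger factors, Npas4 encodes a neuronal factor of the bHLH-PAS family, Arc encodes a synaptic protein that acts in the uptake of AMPA receptors, and Btg2 encodes an antiproliferative regulator of mRNA decay.

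Sequences near the RefSeq starts of 4 members are shown because they hold the elements through which activity is known to reach such genes, with CRE and CArG matches in capitals. RefSeq windows (GRCm38.p6) were on hand for 7 of the 10 members, in 11 windows because Egr2 has several start sites, and the 250 bases before each start were searched on both strands. The short core of the CRE, TGACG, was present for 6 of these 7 members (Btg2, Egr2, Fos, Fosb, Junb and Npas4). That is 8 of their 11 windows, against 17.8% of all 32851 windows. The full CRE, TGACGTCA, which contains that core on both strands, was present for 1 member, Btg2, and in 1.55% of all windows. The CArG box was present for 1 member, Egr2, in 4 of its windows, and in 1.47% of all windows. Some of these Egr2 windows overlap and hold the same site. The hexamer AGGTCA, bound by thyroid hormone receptors, was present for 1 member (Btg2) and in 14.0% of all windows. The direct repeat of this hexamer known as DR4 was found for 0 of the 7 and in 0.0152% of all windows. Sites of AP-1 were found for 0 of the 7 and in 4.46% of all windows. Sites of the EGR factors were found for 1 member, Fosb, and in 3.06% of all windows. Fos (chr12:85473640-85473889, plus strand) holds 2 CRE cores, Btg2 (chr1:134079156-134079405, minus strand) the full CRE, and Egr2 (chr10:67537619-67537868, plus strand) the CArG box between 2 CRE cores. The 29 bases shown for Npas4 (chr19:4990129-4990157, minus strand) hold its 2 CRE cores, on opposite strands. These bases lie before the RefSeq start but inside the longer GENCODE gene model, where the whole searched window of Npas4, 250 of 250 bases, is annotated as exon. These are matches of letters, and factor binding was not measured. Bases farther than 250 from a start were not searched, so a gene without a match here may still hold the element.
Fos: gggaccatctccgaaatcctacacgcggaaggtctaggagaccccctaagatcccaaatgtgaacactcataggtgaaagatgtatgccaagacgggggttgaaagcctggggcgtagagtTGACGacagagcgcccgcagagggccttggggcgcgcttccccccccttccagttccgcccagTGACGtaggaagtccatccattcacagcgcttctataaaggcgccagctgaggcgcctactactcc
Btg2: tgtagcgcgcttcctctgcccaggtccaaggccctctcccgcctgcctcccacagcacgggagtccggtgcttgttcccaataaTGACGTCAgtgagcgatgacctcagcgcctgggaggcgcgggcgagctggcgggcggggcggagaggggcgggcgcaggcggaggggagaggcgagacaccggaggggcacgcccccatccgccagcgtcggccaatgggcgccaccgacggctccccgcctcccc
Egr2: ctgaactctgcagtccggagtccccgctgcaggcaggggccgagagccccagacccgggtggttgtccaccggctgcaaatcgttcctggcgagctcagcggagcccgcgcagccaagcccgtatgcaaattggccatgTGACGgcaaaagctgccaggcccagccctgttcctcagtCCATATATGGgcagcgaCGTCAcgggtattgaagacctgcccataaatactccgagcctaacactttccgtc
Npas4: cgttcgaCGTCAcgggaTGACGtcggaag

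The libraries held 21.8 to 29.1 M counts, and CPM below is the count scaled to library size after TMM normalisation. GABAergic identity was checked on Gad1, Gad2, Slc32a1 and Dlx6os1, which were detected in every library. Slc32a1, the lowest of them, ran from 9.01 CPM in PTU mouse 12 to 21.1 CPM in PTU+TH mouse 15. Dlx1, which lies wholly inside another gene, was at 0 in all 8. Of the genes listed as thyroid hormone targets, which were chosen with these data known, 6 of 6 were called higher in PTU+TH (edgeR called 1.49% of all genes higher), with summed levels of 48.0 to 64.5 CPM in PTU and 137 to 159 CPM in PTU+TH. Neither group was free of other cells' transcripts. The summed excitatory neuron markers ranged from 37.1 to 107 CPM in PTU and from 45.7 to 120 CPM in PTU+TH. The astrocyte markers ranged from 125 to 241 CPM and from 127 to 366 CPM, the endothelial markers from 33.5 to 152 CPM and from 33.6 to 108 CPM.

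In GRCm38 the positions of 9 members are as follows, and that of Egr1 is not given here: Btg2 at chr1:134075170-134079120, Jun at chr4:95049034-95052222, Fosb at chr7:19302696-19310051, Junb at chr8:84974484-84978718, Arc at chr15:74669083-74672570 and Npas4 at chr19:4984355-4990316 on the minus strand, and Egr2 at chr10:67535475-67542188, Fos at chr12:85473890-85477273 and Egr3 at chr14:70077203-70082614 on the plus strand. Counts were given per gene, so no exon or intron can be named for them.

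None of the 9 tested immediate early genes differed between PTU+TH and PTU in the edgeR quasi-likelihood test at an adjusted p under 0.05. Of all 17355 genes tested, 368 or 2.12% were called, 258 higher and 110 lower. DESeq2 and limma voom also called 0 of the 9, where they called 3.88% and 2.03% of all genes they tested. Of the 9, 1, Egr2, had an unadjusted edgeR p under 0.05, as did 12.8% of all genes. Log2 fold changes of PTU+TH over PTU were positive for 5 members (Fos, Jun, Junb, Egr1 and Arc) and negative for 4 (Egr2, Egr3, Npas4 and Btg2). Their median was 0.12, against -0.01 over all tested genes. The groups overlapped for every tested member, so 0 members had groups that did not overlap, where 8.71% of all tested genes did (4.68% higher and 4.03% lower in PTU+TH).

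**Figure D1:**
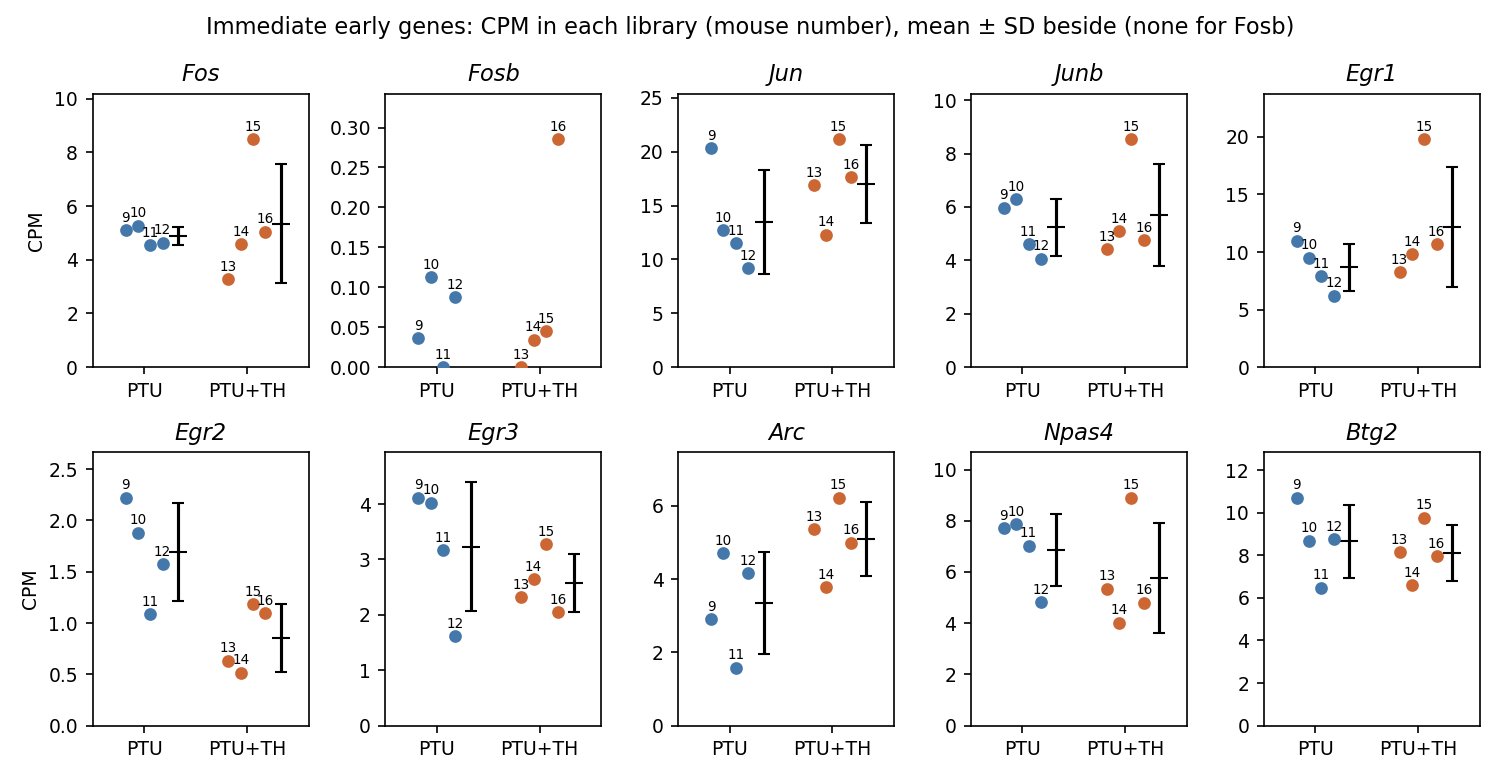
Each panel plots CPM (vertical axis, from 0, scaled per gene) in the 4 PTU libraries (blue) and the 4 PTU+TH libraries (orange), with mouse numbers; black marks are mean ± SD, left out for Fosb. Values of the 2 groups overlap in all panels, and PTU+TH mouse 15 is the highest of its group in every panel but that of Fosb.

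Among the members that encode AP-1 proteins, Jun was the most abundant. It stood at 20.4, 12.7, 11.5 and 9.18 CPM in PTU mice 9 to 12 and at 16.9, 12.3, 21.2 and 17.7 CPM in PTU+TH mice 13 to 16. PTU mouse 9 alone exceeded 3 of the 4 PTU+TH libraries, and the other 3 PTU libraries lay below 3 of the 4. The means were 13.4 ± 4.84 and 17.0 ± 3.64 CPM (SD, n = 4 each), with a log2 fold change of 0.33 (95% interval -0.17 to 0.84; edgeR adjusted p = 0.642). Of the gene body of Jun, 78.4% is free of other annotated genes, and how reads in the rest were counted is not given in the sources used here.

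Fos, whose protein pairs with JUN, stood at 5.10, 5.27, 4.55 and 4.64 CPM across PTU, against 3.29, 4.57, 8.50 and 5.04 CPM in PTU+TH. The PTU libraries were close together, and the PTU+TH libraries lay on both sides of them. The log2 fold change was 0.13 (95% interval -0.43 to 0.68; edgeR adjusted p = 0.921), and it was -0.19 without PTU+TH mouse 15. Junb, which encodes a JUN relative, had 5.97, 6.28, 4.60 and 4.07 CPM in PTU and 4.43, 5.09, 8.54 and 4.76 CPM in PTU+TH. Its log2 fold change of 0.12 (95% interval -0.40 to 0.64; edgeR adjusted p = 0.921) likewise became -0.14 without mouse 15. The signs of Fos and Junb thus rested on 1 library.

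Fosb, the paralog of Fos, was close to undetected. It had 1, 3, 0 and 2 counts in PTU mice 9 to 12 and 0, 1, 1 and 6 counts in PTU+TH mice 13 to 16. A library with 0 counts allows up to 3 counts, or 0.126 to 0.148 CPM in mice 13 and 11, by counting error alone. Of the 8 libraries 7 were at or under that floor, so no fold change is given. Its gene body is 100% free of other annotated genes.

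Egr2 had the largest log2 fold change of the 9 tested members in either direction. It stood at 2.22, 1.88, 1.09 and 1.57 CPM in PTU (61, 50, 22 and 36 counts) and at 0.63, 0.52, 1.18 and 1.09 CPM in PTU+TH (15, 15, 26 and 23 counts). PTU mouse 11 was level with PTU+TH mice 15 and 16, and the other 3 PTU libraries were above all PTU+TH libraries. Without mouse 11 the groups of Egr2 did not overlap, as for 12.3% of all genes then tested. The means were 1.69 ± 0.48 and 0.86 ± 0.33 CPM (SD, n = 4 each), a log2 fold change of -1.0 (SE 0.37, 95% interval -1.80 to -0.20). The unadjusted p was 0.0179 and the edgeR adjusted p 0.243, so Egr2 did not pass. Over 22 alternative settings its log2 fold change stayed between -1.56 and -0.75 and its adjusted p between 0.130 and 0.522.

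Egr1, the most abundant of the 3, stood at 11.0, 9.52, 7.92 and 6.21 CPM across PTU, against 8.26, 9.83, 19.8 and 10.7 CPM in PTU+TH. Mouse 15 was above all 7 other libraries, and the other PTU+TH libraries lay within the PTU range. The log2 fold change was 0.48 (95% interval -0.10 to 1.06; edgeR adjusted p = 0.514), and it was 0.06 in the 6 libraries with Y-linked counts, which leave out mice 15 and 16. Those 2 libraries, both PTU+TH, were at 0 for all 4 Y-linked genes, and the part of sex was not tested. Egr3 stood at 4.12, 4.03, 3.17 and 1.62 CPM across PTU, against 2.32, 2.65, 3.27 and 2.05 CPM in PTU+TH. PTU mice 9 and 10 were above every PTU+TH library and PTU mouse 12 below every one. Its log2 fold change was -0.33 (95% interval -0.97 to 0.31; edgeR adjusted p = 0.737).

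Arc had the largest positive log2 fold change among the members. It stood at 2.91, 4.70, 1.58 and 4.16 CPM across PTU, against 5.35, 3.78, 6.22 and 5.0 CPM in PTU+TH. Of the PTU+TH libraries 3 were above all PTU libraries, and mouse 14 lay between PTU mice 9 and 12. The means were 3.34 ± 1.39 and 5.09 ± 1.01 CPM (SD, n = 4 each), with a log2 fold change of 0.60 (SE 0.30, 95% interval -0.04 to 1.24; edgeR adjusted p = 0.439). Without mouse 14 the groups of Arc no longer overlapped, as was the case for 11.7% of all genes then tested.

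Npas4, which promotes the formation of inhibitory synapses on excitatory neurons and is expressed almost only in neurons, stood at 7.72, 7.87, 7.03 and 4.81 CPM across PTU, against 5.35, 4.02, 8.90 and 4.81 CPM in PTU+TH. PTU mice 9 to 11 were above all PTU+TH libraries but mouse 15. The log2 fold change was -0.25 (95% interval -0.80 to 0.29; edgeR adjusted p = 0.780). Btg2 stood at 10.7, 8.69, 6.48 and 8.75 CPM across PTU, against 8.14, 6.60, 9.77 and 7.95 CPM in PTU+TH. It had the narrowest interval of the members, -0.50 to 0.30 around a log2 fold change of -0.10 (edgeR adjusted p = 0.914), that is, a fold between 0.708 and 1.23. The intervals of the other members allow larger differences, so these data do not show that the levels were equal.

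**Figure D2:**
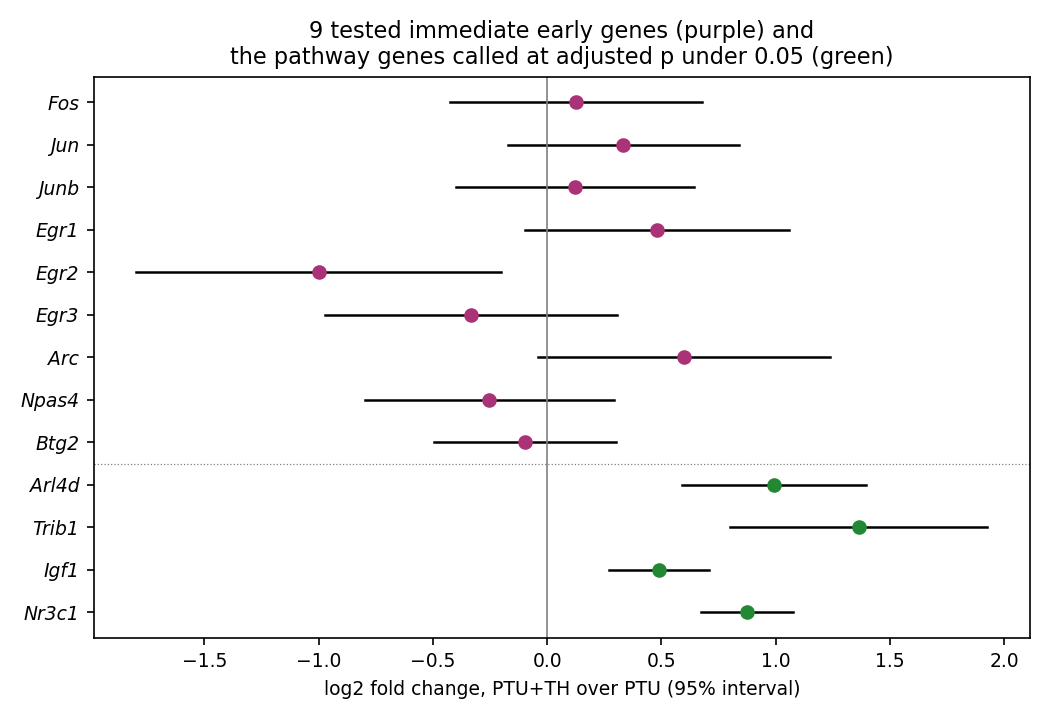
Points are log2 fold changes of PTU+TH over PTU (horizontal axis) and lines their 95% intervals, from the edgeR fit over all genes. The 9 tested immediate early genes (purple) are spread on both sides of 0, from -1.0 (Egr2) to 0.60 (Arc), while Arl4d, Trib1, Igf1 and Nr3c1 (green) lie wholly above 0.

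Levels were compared between members per kilobase of exon, as mean CPM per kb ± SD over 4 libraries. In PTU the order was Jun (4.22 ± 1.52), Btg2 (3.16 ± 0.63), Junb (2.27 ± 0.46), Fos (2.08 ± 0.15), Egr1 (1.93 ± 0.46), Npas4 (1.66 ± 0.34), Arc (1.09 ± 0.46), Egr3 (0.73 ± 0.26), Egr2 (0.50 ± 0.14) and Fosb (0.009 ± 0.008). Neighbours in this order lay closer than the sum of their SDs, apart from Egr2 and Fosb. In PTU+TH the order differed in the middle, with Egr1 (2.71 ± 1.16) before Junb (2.48 ± 0.83) and Fos (2.28 ± 0.95), and Arc (1.67 ± 0.33) before Npas4 (1.40 ± 0.52). There the gaps between Jun and Btg2, Npas4 and Egr3, Egr3 and Egr2, and Egr2 and Fosb exceeded the sum of the SDs. Nuclear RNA holds unspliced transcript, and whether intron reads were counted is not given in the sources used here, so levels per exon length are approximate.

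The spread between libraries was wide for most members. The within-group SD of log2 CPM was 0.41 at the median of the 9, against 0.24 over all tested genes. Since low genes vary more, each member was also set beside tested genes of like abundance, within 0.25 log2 units. Jun, with an SD of 0.41 against a median of 0.20 among 965 genes of like abundance, lay at percentile 94.0 of those genes, and Egr1 (0.46 against 0.24) at percentile 92.7. Arc (0.53 against 0.32) and Npas4 (0.41 against 0.29) lay at percentiles 87.3 and 83.0, and Fos and Egr3 both at 75. Junb, Btg2 and Egr2 were nearer to the middle, at percentiles 67.9, 55.4 and 48.5. For Egr2 the mean count per library alone gives a counting error of 18%, against 5.22% for Jun.

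**Figure D3:**
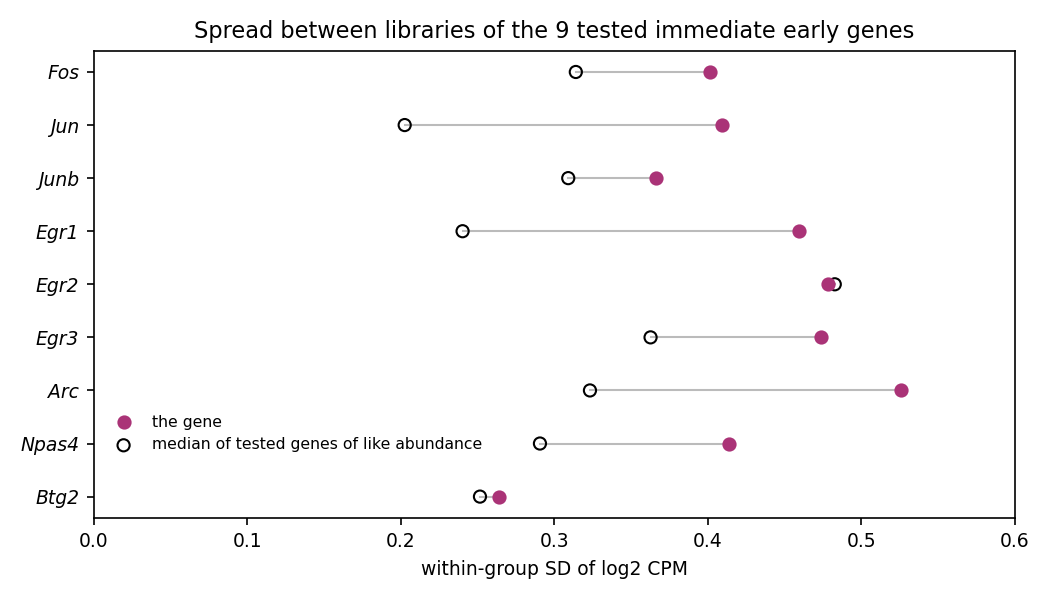
The horizontal axis is the within-group SD of log2 CPM, pooled over the 2 groups of 4 libraries, for each tested member (purple) and the median of tested genes of like abundance (open circles). Of the 9 members 8 lie to the right of their circle, with Jun and Egr1 at the widest gaps (0.41 against 0.20, and 0.46 against 0.24).

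This spread was shared between members. In the PTU+TH group mouse 15 was highest for 9 of 9 tested members, and mouse 14 was lowest for 5. In the PTU group mouse 9 was highest for 5 members and mouse 10 for the other 4, while mouse 12 was lowest for 5 and mouse 11 for 4. The 10 members together summed to 70.2, 61.1, 47.9 and 45.1 CPM in PTU mice 9 to 12 and to 54.6, 49.4, 87.4 and 59.3 CPM in PTU+TH mice 13 to 16.

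Transcripts of some other cell types had a similar order of libraries, and others shared with the members the high value of mouse 15 but differed in PTU. The 8 excitatory neuron markers summed to 107, 99.9, 55.4 and 37.1 CPM in PTU and to 94.7, 45.7, 120 and 61.4 CPM in PTU+TH, with Neurod1 listed at 0 in all libraries and Slc17a7 at 15.8 to 57.9 CPM. The 6 astrocyte markers summed to 226, 241, 179 and 125 CPM in PTU and to 259, 127, 366 and 195 CPM in PTU+TH, with Gfap listed at 0 throughout. Neurod1 and Gfap each lie wholly inside another gene, as do Dlx1 and Srf, so these zeros are not read as absence. Mice 9, 10 and 15 were thus high in members and in both marker lists, whereas mouse 13 was high in the markers but below mouse 16 in members. The oligodendrocyte and precursor markers followed the same order as the excitatory neuron markers in PTU, with mouse 15 again highest in PTU+TH (193 and 33 CPM). The microglia markers were highest in PTU mouse 9 (15.2 CPM) and PTU+TH mouse 15 (27.8 CPM), but lowest in PTU mouse 10 (9.90 CPM). The striatal GABAergic markers were lowest in PTU mouse 9 (210 CPM) and highest in PTU mouse 11 (261 CPM), while in PTU+TH they were highest in mouse 15 (236 CPM). The 6 endothelial markers were highest in PTU mouse 10 (152 CPM) and in PTU+TH mouse 15 (108 CPM). The 10 heat shock genes, which respond to cell stress, summed to 554, 382, 345 and 276 CPM in PTU and to 372, 411, 490 and 445 CPM in PTU+TH, again highest in mice 9 and 15. Fits with a marker list as covariate were made for excitatory neurons, astrocytes and endothelium, with 0 members called in each; the part of the other lists and of heat shock in the members' levels was not tested. In these bulk libraries more nuclei of another type cannot be told apart from more RNA per nucleus.

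**Figure D4:**
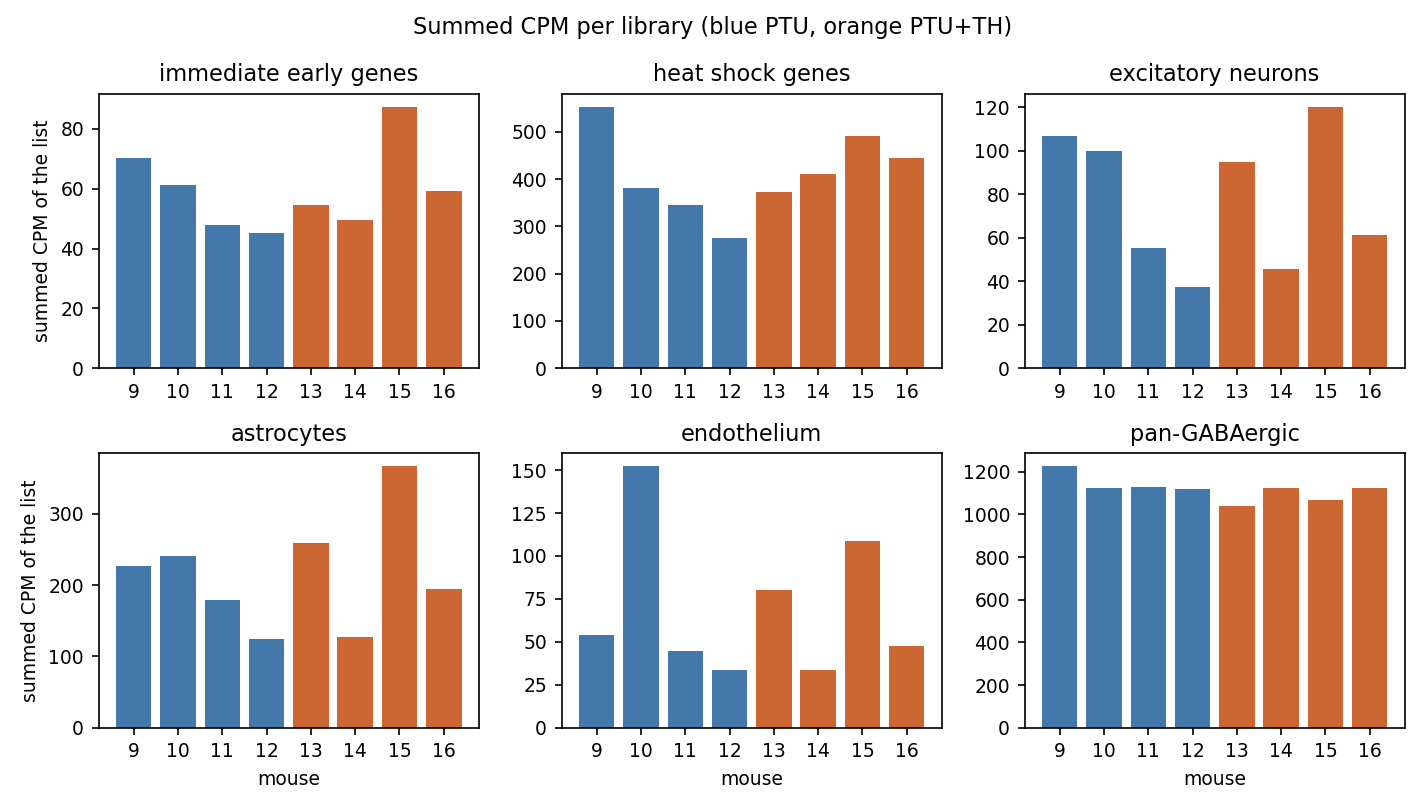
Bars are the summed CPM (vertical axis, from 0) of each gene list in the libraries of mice 9 to 12 (PTU, blue) and 13 to 16 (PTU+TH, orange). Immediate early genes, excitatory neuron and astrocyte markers are all highest in mouse 15 among PTU+TH libraries. The summed pan-GABAergic genes, mostly Gad1, Gad2 and Dlx6os1, vary little, from 1041 to 1226 CPM.

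With the mean of the excitatory neuron markers as a covariate in edgeR, the SE of the log2 fold change fell for some members. It went from 0.23 to 0.13 for Jun, from 0.27 to 0.18 for Egr1 and from 0.25 to 0.18 for Npas4. For Junb it went from 0.24 to 0.19, for Egr3 from 0.30 to 0.24 and for Btg2 from 0.185 to 0.16. It stayed at 0.30 for Arc and went only from 0.37 to 0.35 for Egr2 and from 0.26 to 0.24 for Fos. With the astrocyte markers as covariate it was 0.17 for Jun and 0.20 for Egr1. With the excitatory neuron covariate the log2 fold changes were 0.28 for Jun, 0.39 for Egr1, 0.56 for Arc and -1.07 for Egr2. The edgeR adjusted p of Egr2 in that fit, 0.130, was its smallest over the settings tried. The number of members called was 0 with the excitatory neuron covariate, and 585 of all genes or 3.37% were called. In the 4 libraries with less of these markers (PTU mice 11 and 12, PTU+TH mice 14 and 16) the log2 fold changes were 0.53, 0.54, 0.60 and -0.75 in the same order. That of Egr3 was -0.0087 there, against -0.33 in all 8 libraries, and that of Npas4 -0.42, against -0.25. This set of 4 left 2 libraries a group, where 4 of the 9 members and 48.7% of all tested genes did not overlap.

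Ratios between members within a library do not depend on the scaling of that library. They were computed for all 36 pairs of the 9 tested members after the values had been seen. Counts of Egr1 were 4.95, 5.06, 7.27 and 3.94 times those of Egr2 in PTU mice 9 to 12 and 13.1, 19.1, 16.8 and 9.74 times in PTU+TH mice 13 to 16. Every PTU+TH library was above every PTU library, with a difference of 1.46 in the mean log2 ratio. Counts of Arc were 1.31, 2.5, 1.45 and 2.64 times those of Egr2 in PTU and 8.47, 7.33, 5.27 and 4.57 times in PTU+TH, a difference of 1.72 in log2. Counts of Egr1 were 1.42, 1.21, 1.13 and 1.29 times those of Npas4 in PTU and 1.54, 2.44, 2.22 and 2.22 times in PTU+TH, a difference of 0.72 in log2.

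In all, 9 of the 36 ratios did not overlap between the groups, and 6 of the 9 contained Egr2. In an exact permutation test (two-sided, 70 arrangements) each of the 9 reached 0.0286, the lowest p possible, and an adjusted p of 0.114 over the 36 pairs. With this lowest p a few ratios among 36 cannot pass the adjusted threshold, however far apart the groups are, so these tests do not decide. Against Egr2, 27.1% of all other tested genes also had ratios that did not overlap. That share was 7.49% against Arc, 4.1% against Egr1, 3.49% against Btg2, 2.93% against Jun, 2.77% against Npas4, 2.2% against Egr3, 1.82% against Junb and 1.44% against Fos. The other 3 ratios without overlap were Egr1 over Npas4, Arc over Btg2 and Junb over Egr1.

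**Figure D5:**
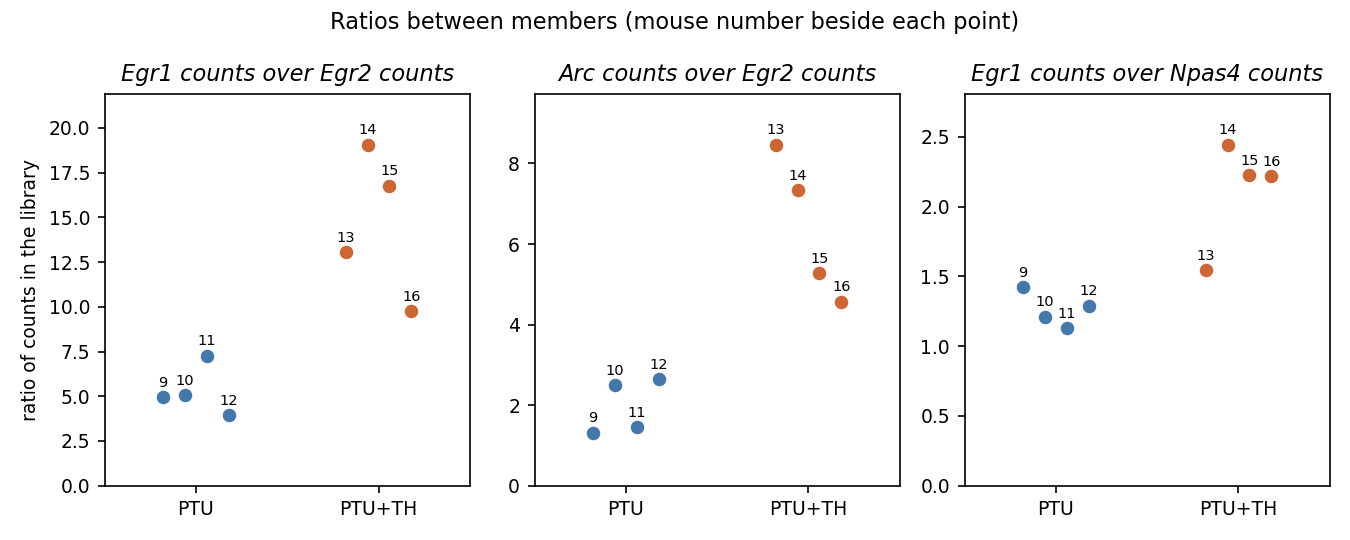
Vertical axes (from 0) are ratios of counts within each library, for PTU (blue) and PTU+TH (orange), with mouse numbers beside the points. Egr1 over Egr2, Arc over Egr2 and Egr1 over Npas4 are higher in all 4 PTU+TH libraries than in all 4 PTU libraries, with an adjusted p of 0.114 for each over 36 pairs.

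Other genes of activity-regulated transcription were read from the same fit in 7 lists with 102 genes, of which 93 were tested. In edgeR 4 were called higher (1.49% of all genes were) and 0 lower (0.634% of all genes), with a median log2 fold change of 0.03. Among relatives of the AP-1 and EGR factors edgeR, DESeq2 and limma voom each called 0 of 5 tested genes. Of these 0 had an unadjusted edgeR p under 0.05 (12.8% of all genes). Fosl1 and Fosl2 had the largest log2 fold changes, 0.53 and 0.22. Among other rapid transcription factors the same tools called 0 of 14, with 3 at an unadjusted edgeR p under 0.05 (12.8% of all genes). Ier5, a growth-factor-induced gene, was at 4.37 ± 1.35 CPM in PTU and 7.76 ± 2.78 in PTU+TH (SD, n = 4 each; edgeR adjusted p = 0.200), and Maff, a small MAF factor, had a log2 fold change of 0.43 (edgeR adjusted p = 0.861), which ran from -0.083 to 1.06 over the alternatives. Log2 fold changes were negative for 10 of the 14, with a median of -0.09. The other 2 genes at an unadjusted p under 0.05 were Klf6 (-0.40, edgeR adjusted p = 0.151) and Nr4a1 (-0.27, edgeR adjusted p = 0.244), the latter with all PTU+TH libraries below all PTU libraries.

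Among rapid effectors edgeR called 2 of 20, both higher (1.49% of all genes), with 5 at an unadjusted edgeR p under 0.05 (12.8% of all genes). Trib1, which encodes a pseudokinase that directs proteins to degradation, stood at 2.33, 2.18, 1.44 and 2.14 CPM across PTU, against 6.11, 4.81, 6.68 and 3.33 CPM in PTU+TH. All PTU+TH libraries were above all PTU libraries, and edgeR gave a log2 fold change of 1.36 (SE 0.26) with an adjusted p of 0.0149. Arl4d, which encodes a small GTPase, averaged 5.36 ± 1.34 CPM (SD, n = 4) in PTU and rose to 10.7 ± 0.96 CPM, a log2 fold change of 0.99 at an edgeR adjusted p of 0.0135. Without mouse 15 neither gene passed, nor in the 6 libraries with Y-linked counts. Arl4d also did not pass with scaling by library totals alone, and Trib1 not without mouse 13 or in the 4 libraries with fewer excitatory neuron transcripts. Over the 22 alternatives the log2 fold change ranged from 0.89 to 1.27 for Arl4d and from 1.19 to 1.53 for Trib1.

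Among late activity-regulated genes edgeR and limma voom called 1 of 15 (2.12% and 2.03% of all genes). DESeq2, which called 3.88% of all genes it tested, called 3, Igf1, Gpr3 and Pcsk1. At an unadjusted edgeR p under 0.05 stood 6 of the 15 (12.8% of all genes). In edgeR Gpr3, a receptor gene, had a log2 fold change of 0.52 and Pcsk1, a prohormone convertase gene, one of -0.54, with edgeR adjusted p of 0.0725 and 0.0968 and groups that did not overlap. Igf1, a growth factor, averaged 96.9 ± 4.17 CPM (SD, n = 4) in PTU and rose to 136 ± 18.5 CPM, a log2 fold change of 0.49 at an edgeR adjusted p of 0.0247, but did not pass without PTU mouse 10 or 12 or without PTU+TH mouse 15 or 16. It also did not pass with library totals alone, in the 6 libraries with Y-linked counts or in the 4 with fewer excitatory neuron transcripts. Nptx1 and Scg2, a synaptic pentraxin and a secretory granule protein, had positive log2 values, 0.82 at an edgeR adjusted p of 0.201 and 0.54 at 0.318. Bdnf, the best known of this list, had a log2 fold change of -0.47 (edgeR adjusted p = 0.722).

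On the path from calcium to these genes edgeR and limma voom called 0 of 22, with 6 at an unadjusted edgeR p under 0.05 (12.8% of all genes). DESeq2 called 2 (3.88% of all genes it tested), Hdac4 and the kinase gene Camk2b. The largest log2 fold changes were those of Hdac4, a deacetylase that leaves the nucleus upon activity (0.42, edgeR adjusted p = 0.0842, called in 6 of 22 alternatives), and Rps6ka2, a kinase below ERK (-0.32, edgeR adjusted p = 0.315). Creb1, the gene of CREB, had a log2 fold change of 0.26 (edgeR adjusted p = 0.169), and Srf lies wholly inside another gene and was listed at 0. Among partners and repressors edgeR called 1 of 9 (2.12% of all genes), with 2 at an unadjusted edgeR p under 0.05 (12.8% of all genes). Nr3c1, the glucocorticoid receptor and a repressor of AP-1, stood at 47.8, 50.1, 40.6 and 41.4 CPM across PTU, against 76.7, 84.2, 86.4 and 82.8 CPM in PTU+TH. It rose, with an adjusted p of 0.000236 in edgeR for a log2 fold change of 0.88 (SE 0.09), and passed in each of the 22 alternatives. Nab2, a corepressor of the EGR factors, was at 3.81 ± 0.61 and 2.34 ± 0.25 CPM (SD, n = 4 each) at an edgeR adjusted p of 0.141, with all PTU+TH libraries below all PTU libraries. Its body is 56.2% free of other genes. Of the heat shock genes edgeR, DESeq2 and limma voom called 0 of 8, with 1 at an unadjusted edgeR p under 0.05 (12.8% of all genes). Hspe1 had a log2 fold change of 0.41 (edgeR adjusted p = 0.263). Hspa1b had 0.474, 0.301, 0.0495 and 0 CPM in the PTU libraries, 2 of them under the floor of 3 counts, and its fitted log2 value (1.55, edgeR adjusted p = 0.426) ran from 0.70 to 4.64 over the alternatives.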

How the data were processed

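The authors deposited raw counts of reads per gene, 1 table per library, with 0 rows that name no gene. Per the submitters' processing notes, Bowtie2 2.5.3 and the builds mm10 and GRCm38 were used; the counting program, strand and introns are not given in the sources used here. All 55341 symbols match GENCODE M21 (GRCm38), used for gene models. Groups come from the titles, with 1 library of a mouse as the replicate; no batch is labelled.

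From the deposited counts, edgeR 4.0.16 in R 4.3.3 was run with filterByExpr, TMM scaling and the robust quasi-likelihood test and a model of group alone. Two-sided p-values were corrected over all genes kept (Benjamini-Hochberg). CPM and log2 CPM (prior count 2) were computed here. Scripts were tested on simulated data. The depth of 21.8 to 29.1 M counts sets the counting error; intervals and floors for single libraries cover counting error only. The members and lists were chosen with earlier results of these data known. Named genes are all members, and from each pathway list the called genes and the 2 largest log2 fold changes; Bdnf, Creb1, Srf, Camk2b, Gpr3, Pcsk1, Klf6 and Nr4a1 were added after their values were seen. One marker gene is not reported here and was left out of its list. Of the list symbols, 3 were matched through RefSeq synonyms. Alternatives covered scaling, DESeq2 1.42.0, limma 3.58.1 voom, filters, thinning, covariates and left-out libraries.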

Additional observations from a re-analysis of the deposited data

Results flagged for a closer look

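In groups of 4 libraries, a library was sought whose gap to the nearest of the others exceeded 0.829 of the range of the 4. This was done in 54 sets (10 members and 17 summed lists in 2 groups), with 4 hits against 2.7 that chance would give (5% of sets). PTU+TH mouse 15 had 8.54 CPM of Junb, while mice 13, 14 and 16 had 4.43 to 5.09. PTU+TH mouse 16 had 0.286 CPM of Fosb, which is 6 counts, and mice 13 to 15 had 0 to 0.0454. The summed microglia markers in PTU+TH mouse 15 were at 27.8 CPM against 14.1 to 14.7. The summed pan-GABAergic genes in PTU mouse 9 were at 1226 CPM against 1118 to 1128.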

How the results depend on the processing

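No paired analysis was possible because no number occurs in both groups. The count of members called was 0 under all 22 alternatives. The signs of Egr1, Egr2, Egr3, Jun, Arc and Npas4 held under all 22. Those of 3 members turned: Fos and Junb to -0.31 and -0.14 with only the 6 libraries that hold Y-linked counts and to -0.19 and -0.14 without PTU+TH mouse 15, and Btg2 to 0.025 without PTU mouse 9. With a library left out, Fos ranged from -0.19 to 0.30, Junb from -0.14 to 0.23 and Btg2 from -0.21 to 0.025, and members that kept their sign also moved (Jun 0.19 to 0.61, Egr1 0.14 to 0.63, Arc 0.37 to 0.81, Egr3 -0.55 to -0.19, Npas4 -0.54 to -0.11, Egr2 -1.2 to -0.81). Members whose groups do not overlap numbered 0 to 1 when a library was left out and 4 in the 4 libraries with fewer excitatory neuron transcripts, where fewer libraries make overlap rarer. Against 368 genes called, DESeq2 gave 723, the excitatory neuron covariate 585, the mouse number sets (9, 10, 13, 14 against 11, 12, 15, 16) 642 and the 6 libraries 58, and leaving out a library 182 to 499. The share of higher calls, 258 of 368, was 52 of 58 in the 6 libraries. Against 4 pathway genes called, the counts were 8 with DESeq2, 10 with the excitatory neuron covariate, 7 with the mouse number sets, 8 with the astrocyte covariate, 1 in the 6 libraries and 1 to 8 with a library left out. The 6 libraries hold fewer mice and leave out the 2 PTU+TH libraries at 0 for all 4 Y-linked genes. The cause of these changes was not tested. The astrocyte covariate, the set of 4 libraries and the counts of pathway genes were added after seeing the data. The median over all genes shifted by -0.021 to 0.013 with the scaling.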

Other observations

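The genes whose order of libraries was most like that of the 9 tested members were sought among 15221 non-member genes averaging 1 CPM or more, by the root mean square difference of standardised log2 CPM over the 8 libraries. The nearest were Ing1 (0.218), a chromatin reader of the ING family, Meis1 (0.254), a homeobox factor, Pros1 (0.264), which encodes protein S, Ccnd3 (0.287), a D-type cyclin, and Extl3 (0.297), a glycosyltransferase of heparan sulphate synthesis. Ing1 stood at 10.2, 8.77, 6.19 and 6.39 CPM in PTU mice 9 to 12 and at 7.63, 6.02, 11.8 and 7.66 CPM in PTU+TH mice 13 to 16, so that mice 9, 10 and 15 were high here too. None of these 5 was called between the groups (edgeR adjusted p from 0.915 to 0.97). Among the members themselves Junb was nearest to the mean pattern (0.346) and Arc farthest (1.05). With 8 libraries and this many genes searched, close matches are to be found for any pattern, and the list is a description.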
